A study of Mus musculus with 14 samples.

Results

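The genes described here are 10 genes of the MHC class I pathway: the heavy chain genes H2-K1, H2-D1 and H2-T23, the light chain gene B2m, the peptide transporter genes Tap1 and Tap2, the tapasin gene Tapbp, and the immunoproteasome genes Psmb8, Psmb9 and Psmb10. They were chosen by name, and a probe set was counted for a gene when its only symbol in the array annotation was one of these. Of the 15964 genes with a probe set of their own, 9 were members, with 20 probe sets in all. H2-T23 had none of its own. It was read through a probe set that it shares with the pseudogene H2-T-ps, which fell, and through one that carries 10 class I symbols, which did not pass. In all, 4 probe sets carried several symbols of which at least 1 was a member, and they are given apart.

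The RNA came from primary mouse splenocytes in 2 fractions, one depleted of follicular dendritic cells (FDC) and the other enriched for these antigen-holding stromal cells of the B cell follicle. Array set A had 2 depleted and 3 enriched samples, set B 2 depleted and 2 enriched, and set C 2 depleted and 3 enriched, 14 arrays in all. The labels give no strain, genotype, age or treatment of the mice, no isolation method, and do not say whether samples of 1 group are different animals, so the p-values cover a spread between samples that may be technical only. The enriched fraction is not pure: on set A the summed intensity of 11 FDC marker genes was 6089 to 6992 in depleted and 23397 to 27787 in enriched samples, but that of 8 endothelial markers went from 1560 to 1602 up to 16770 to 18894, and that of 11 macrophage markers from 10732 to 12391 up to 24329 to 27743. The sum of 8 B cell markers was 23766 to 23862 in depleted and 7161 to 9254 in enriched samples, and that of 11 T cell markers 8083 to 8280 against 3278 to 3410 on the 2 enriched arrays with all values. The sum of 8 stromal and matrix markers was 3613 to 3971 against 16988 to 17306, and that of 5 NK cell markers 3368 to 3748 against 961 to 1202. All 11 tested FDC, all 11 tested endothelial and 11 of 12 macrophage markers rose, as did 8 of 9 stromal and matrix markers. The marker lists were chosen with earlier results of these data known, so such counts are no independent test of enrichment. Quantile normalization left 9 FDC and 10 macrophage markers rising, and median scaling 10 of each. Of the others, 10 of 11 B cell, 10 of 11 T cell and all 6 NK cell markers fell. Cr2 and Fcer2a were listed as B cell markers and not as FDC markers. Both fell, Cr2 on set B (log2 fold change -0.42, adjusted p = 0.0169, limma) and Fcer2a on set A (-1.48, 1.04e-05). No value of these lists lay at the floor of the tables, 0.001. The part of these cell types in the results below was not tested, and in such bulk samples fewer cells of a type and less RNA per cell cannot be told apart.

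MHC class I molecules show peptides from inside the cell to CD8 T cells and are carried by nearly all nucleated cells. The proteasome cuts proteins into peptides, the Tap1 and Tap2 transporter moves them into the endoplasmic reticulum, and tapasin bridges the transporter to new heavy chains, which leave for the surface with B2m and a bound peptide. Lymphocytes and cells exposed to interferon gamma replace the catalytic subunits Psmb5, Psmb6 and Psmb7 with Psmb8, Psmb9 and Psmb10, which gives the immunoproteasome. Psmb9, Tap1, Psmb8 and Tap2 lie side by side on chromosome 17 within the MHC, with 0 genes between neighbours in the RefSeq order, whereas B2m lies on chromosome 2 and Psmb10 on chromosome 8.

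The stretches before the start sites of H2-K1, H2-D1, B2m, Psmb8, Psmb9 and Tap1 are shown. They were picked from the calls given below, and a link of their letters to the changes was not tested. They come from RefSeq for build GRCm38.p6, which held 9 of the 10 members; Tap2 is named only. Each is written 5′ to 3′ on the strand of the gene. Capitals mark matches on either strand to 3 patterns: NF-kB as GGG, any 5 bases and CC; the paired ISRE core of interferon response elements as GAAA, any 2 bases and GAAA; and the GAS element of interferon gamma responses as TTC, any 3 bases and GAA. Psmb9 and Tap1 start back to back, and the 225 bases between their starts at chr17:34187331-34187555 are given on the Tap1 strand.
H2-K1 (chr17:34000348-34000597, minus strand): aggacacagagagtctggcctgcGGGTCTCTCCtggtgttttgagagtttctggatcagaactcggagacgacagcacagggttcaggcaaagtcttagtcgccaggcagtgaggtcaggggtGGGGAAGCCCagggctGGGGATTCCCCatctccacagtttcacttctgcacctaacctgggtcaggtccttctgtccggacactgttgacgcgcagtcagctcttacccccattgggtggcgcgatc
H2-D1 (chr17:35262844-35263093, plus strand): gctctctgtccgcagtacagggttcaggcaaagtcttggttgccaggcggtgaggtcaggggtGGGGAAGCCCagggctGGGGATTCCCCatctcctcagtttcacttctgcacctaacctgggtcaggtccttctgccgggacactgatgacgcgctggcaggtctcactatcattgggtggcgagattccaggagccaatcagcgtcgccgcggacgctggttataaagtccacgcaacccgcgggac
B2m (chr2:122147437-122147686, plus strand): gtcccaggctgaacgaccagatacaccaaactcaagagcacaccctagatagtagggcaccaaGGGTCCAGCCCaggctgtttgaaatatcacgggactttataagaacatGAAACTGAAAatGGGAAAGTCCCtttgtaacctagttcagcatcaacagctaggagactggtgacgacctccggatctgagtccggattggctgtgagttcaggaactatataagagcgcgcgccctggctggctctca
Psmb9 to Tap1 (chr17:34187331-34187555, plus strand): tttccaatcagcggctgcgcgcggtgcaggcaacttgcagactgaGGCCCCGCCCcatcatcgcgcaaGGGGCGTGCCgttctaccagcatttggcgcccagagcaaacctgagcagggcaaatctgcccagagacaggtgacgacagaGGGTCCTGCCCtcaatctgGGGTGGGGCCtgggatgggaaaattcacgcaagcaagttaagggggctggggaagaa
Psmb8 (chr17:34197945-34198194, plus strand): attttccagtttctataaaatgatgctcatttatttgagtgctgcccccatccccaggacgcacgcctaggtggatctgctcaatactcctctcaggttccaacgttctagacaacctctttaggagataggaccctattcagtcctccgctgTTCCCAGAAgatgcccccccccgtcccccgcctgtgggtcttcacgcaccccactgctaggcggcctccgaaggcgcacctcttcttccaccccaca

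The H2-K1 and H2-D1 stretches were 91% identical over 177 aligned columns, and their longest shared run was 47 bases. Both held the NF-kB matches GGGGATTCCC and GGGGAAGCCC. Neither held an ISRE pair or a GAS match in the spelling searched. Both also held the run agtttcacttct, which the strict ISRE pattern cannot match. Looser spellings were not searched, so these stretches may hold interferon elements that are not marked. The loose NF-kB pattern was found in 45.8% of 32817 windows of 250 bases before RefSeq start sites and the exact letters GGGGATTCCC and GGGGAAGCCC in 0.0853% and 0.14% of them, shares of a size that other exact matches of this length also had. The B2m stretch held the ISRE pair GAAACTGAAA, 139 to 130 bases before the start, followed by the NF-kB match GGGAAAGTCC. An ISRE pair of this spelling pattern was found in 2.97% of all windows. The Psmb8 stretch held a GAS match, TTCCCAGAA, 97 to 89 bases before the start, a pattern found in 7.01% of all windows. The H2-T23 window also held an ISRE pair, TTTCTCTTTC on the gene's strand, 124 to 115 bases before the start. The region between Psmb9 and Tap1 held several NF-kB matches and neither an ISRE pair nor a GAS match in this spelling. Their exact letters differed in how common they were. GGCCCCGCCC was in 4.18% of all windows, GGGTGGGGCC in 0.701%, GGGGCGTGCC in 0.207%, GGTCCTGCCC in 0.201% and GGGTCCTGCC in 0.155%. The exact letters of the B2m ISRE pair were in 0.207% of all windows, those of the H2-T23 pair in 0.445% and those of the Psmb8 GAS match in 1.1%. The CRE half-site TGACG and the CCAAT box were searched too, on either strand, and are not marked. Every stretch shown except that of Psmb8 held both, against 17.7% and 33.8% of all windows. A match describes letters only and was not tested for binding.

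On set A, 15 of the 16 member probe sets were bright enough to be tested, 1 of them rose, 4 fell and 10 did not pass (limma, adjusted p under 0.05). In the same comparison 23.1% of all 7889 tested probe sets rose and 17.9% fell, and the counts of the members were not tested against these shares. Set B held 1 member probe set, which was too dim to be tested, and neither of the 2 tested on set C passed. Over all tested probe sets of set B 19.4% rose and 17% fell, and on set C 9.47% rose and 8.67% fell. Every enriched array lay above every depleted array at 6 of the 15 set A probe sets and below at 5, against 34.7% and 28.6% of all tested probe sets of the set. The split of all set A calls, 1823 rising and 1414 falling, turned to 1434 and 2041 under quantile normalization and to 1459 and 1974 with scaling to the median array.

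**Figure D1:**
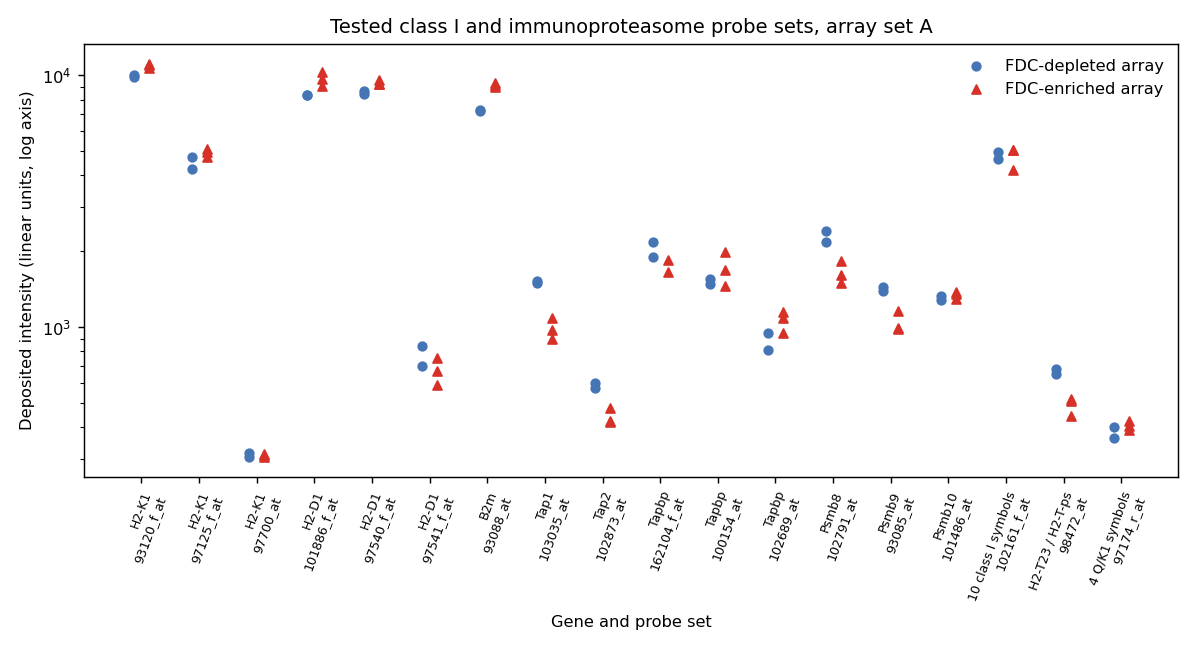
Deposited intensity (linear units on a log axis) of the tested class I and immunoproteasome probe sets on array set A, with 1 point per array, circles for the 2 depleted and triangles for the 3 enriched samples. The enriched arrays lay above the depleted ones at B2m, the bright H2-K1 and H2-D1 probe sets and the dimmest tested one of Tapbp. They lay below at Tap1, Tap2, Psmb8, Psmb9, the H2-T23 and H2-T-ps probe set and the brightest of Tapbp. The heavy chain and Tapbp probe sets did not pass. Of all tested set A probe sets, 34.7% lay apart upward and 28.6% downward in this way.

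B2m, the light chain shared by all classical class I molecules, rose. Its intensity was 7238 and 7313 on the depleted arrays and 9020, 9354 and 9110 on the enriched arrays 1, 2 and 3. The groups did not overlap, and the spread within either was small against the gap between them. The log2 fold change was 0.33 ± 0.07 (SE), or 1.26-fold, with adjusted p = 0.00521 (limma). It passed under each of the 15 other settings tried, with log2 fold changes of 0.23 to 0.35 and a highest adjusted p of 0.0494.

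The heavy chain genes H2-K1 and H2-D1, which encode the classical K and D molecules, were among the brightest features of the array, and neither passed. The brightest H2-K1 probe set lay at percentile 99.9 of set A, with 10027 and 9855 on the depleted and 11123, 10686 and 10971 on the enriched arrays. All 3 enriched values were higher than both depleted ones, yet the log2 fold change of 0.14 ± 0.07 (SE) had adjusted p = 0.15 (limma). The brightest H2-D1 probe set gave 8358 and 8384 on the depleted arrays against 9082, 9689 and 10294 on the enriched ones. Here too the groups did not overlap, and the log2 fold change was 0.21 ± 0.08 (SE) with adjusted p = 0.0668 (limma). The next probe set of each gene behaved alike in size, with log2 fold changes of 0.14 for H2-K1 (adjusted p = 0.219, limma) and 0.13 for H2-D1 (0.166). These 4 probe sets carry the suffix by which the manufacturer marks probes shared within a sequence family, so H2-K1, H2-D1 and other heavy chains may share signal at them. The third H2-D1 probe set and the brightest of Tapbp, of Psmb5 on set B and of Psma3 carry the same suffix. The 2 dimmer ones did not move the same way: the third H2-K1 probe set had 304 and 315 against 313, 306 and 311, and the third H2-D1 probe set 702 and 844 against 591, 757 and 672, with log2 fold changes of 0.0022 and -0.18 that did not pass. The calls and the sizes of the bright heavy chain probe sets depended on the setting. Over the 15 other settings their log2 fold changes went as low as 0.035 and 0.040 at H2-K1 and 0.11 and 0.032 at H2-D1. With array weights all 4 passed, with log2 fold changes of 0.14 to 0.28, and the brightest of H2-D1 also passed under quantile normalization (adjusted p = 0.0351, limma) and without enriched sample 1 (0.0457). Under quantile normalization the dim H2-D1 probe set passed as a fall, by a log2 fold change of -0.30 (adjusted p = 0.0477, limma).

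H2-T23 encodes the heavy chain of Qa-1, a nonclassical molecule that presents leader peptides of other class I chains to NK receptors. The probe set that H2-T23 shares with H2-T-ps read 648 and 679 on the depleted arrays and 443, 518 and 508 on the enriched ones. All enriched values were lower, and the log2 fold change of -0.38 ± 0.08 (SE) passed with adjusted p = 0.00652 (limma), though not without depleted sample 2 (0.0667). A probe set with 10 class I symbols, among them H2-K1, H2-D1 and H2-T23, read 4657 and 4963 against 4214, 5051 and 5037, with overlapping groups and a log2 fold change of -0.02 (adjusted p = 0.916, limma). Another with H2-Q9, H2-Q7, H2-Q10 and H2-K1 had a log2 fold change of 0.07 (adjusted p = 0.475, limma), and the fourth, with 4 H2-Q symbols and H2-D1, was too dim to be tested.

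The peptide transporter genes fell. Tap1 read 1518 and 1497 on the depleted arrays and 895, 1091 and 974 on the enriched arrays. Its highest enriched value lay well below its lowest depleted one, and the log2 fold change was -0.57 ± 0.09 (SE) with adjusted p = 0.00137 (limma), a 1.49-fold lower level. This was the member with the lowest adjusted p, and it passed under each of the 15 other settings, with log2 fold changes of -0.68 to -0.51. Its probe set on set B, at percentile 35.6 and not tested, read 151 and 139 against 123 and 135. Tap2 read 571 and 597 on the depleted and 418, 479 and 425 on the enriched arrays of set A. The groups were apart, with a log2 fold change of -0.35 ± 0.08 (SE) and adjusted p = 0.00782 (limma), which became 0.0786 without depleted sample 2. On set C, Tap2 read 743 and 672 against 489, 639 and 568. These values were also all lower in the enriched samples, but the log2 fold change of -0.30 ± 0.10 (SE) missed the threshold (adjusted p = 0.0672, limma). It passed with adjustment over the 3 array sets together (0.0443) and without enriched sample 2 (0.0186).

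Tapbp, the tapasin gene, gave probe sets that differed in sign, and none of its 3 tested ones passed. The brightest had no value for enriched sample 2 and read 2174 and 1900 on the depleted arrays against 1656 and 1847 on the 2 remaining enriched ones. That is a log2 fold change of -0.21 ± 0.11 (SE, adjusted p = 0.166, limma, fitted on 4 arrays). The next read 1485 and 1553 against 1451, 1986 and 1683, with overlapping groups and a log2 fold change of 0.15 (adjusted p = 0.383, limma). The dimmest of the tested read 945 and 812 against 946, 1147 and 1087. Its enriched values were all higher, with 944.6 and 946.1 as the closest between groups, and its log2 fold change of 0.25 (adjusted p = 0.0907, limma) passed with array weights (0.00485) and without enriched sample 1 (0.0162). No direction for Tapbp is therefore given.

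Of the immunoproteasome genes, the MHC-linked Psmb8 and Psmb9 fell, and Psmb10 did not pass. Psmb8, the chymotrypsin-like subunit also called Lmp7, read 2173 and 2400 on the depleted arrays and 1493, 1835 and 1605 on the enriched ones. The groups did not overlap, with a log2 fold change of -0.46 ± 0.10 (SE) and adjusted p = 0.00753 (limma). Another Psmb8 probe set, on set C, did not show this, with 302 and 333 against 320, 332 and 312 and a log2 fold change of 0.02 (adjusted p = 0.878, limma). Psmb9, also called Lmp2, read 1396 and 1443 on the depleted and 989, 1156 and 979 on the enriched arrays. The enriched values were all lower, with a log2 fold change of -0.42 ± 0.09 (SE) and adjusted p = 0.00657 (limma). Psmb10, also called Mecl1, read 1334 and 1280 against 1356, 1374 and 1288. These values overlapped, and the log2 fold change of 0.03 ± 0.07 (SE) had adjusted p = 0.771 (limma). Without depleted sample 2 the calls of Psmb8 (adjusted p = 0.088, limma) and Psmb9 (0.067) were lost, leaving Tap1 as the member that fell.

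**Figure D2:**
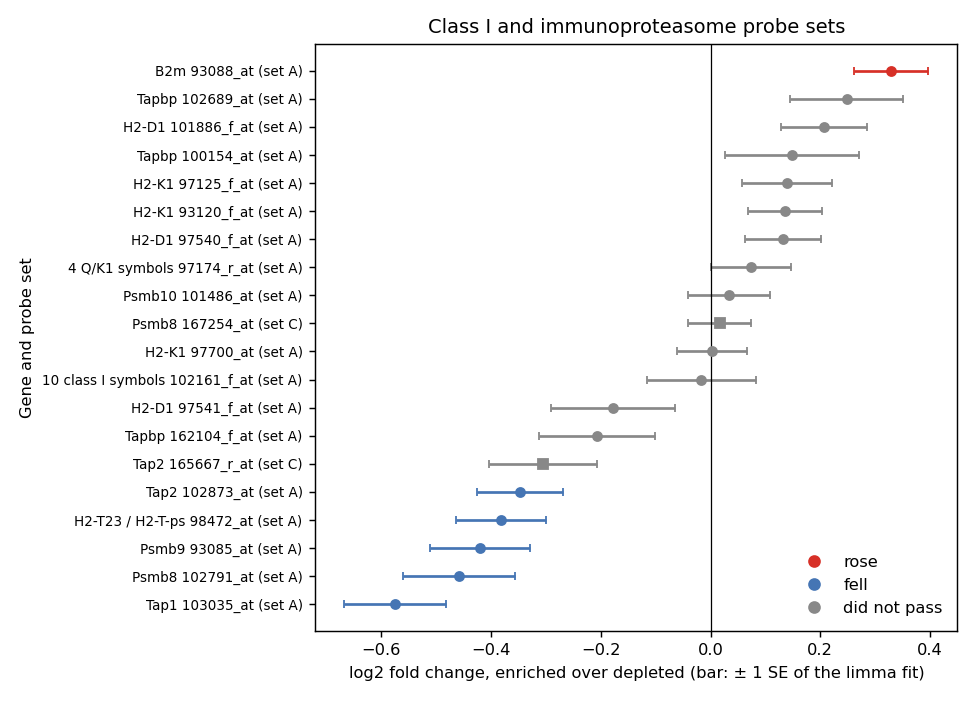
Log2 fold change of enriched over depleted samples for every tested probe set of the class I and immunoproteasome genes, with bars of 1 SE of the limma fit, circles for set A and squares for set C. B2m is the single rise, at 0.33, and the falls run from -0.35 at Tap2 to -0.57 at Tap1.

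At the 5 probe sets that fell, counting that of H2-T23 and H2-T-ps, enriched sample 2 had the highest of the 3 enriched values, and it also had the highest at B2m. At both bright H2-K1 probe sets and the second of H2-D1, enriched sample 2 instead had the lowest enriched value (10686, 4731 and 9234). The median intensities of set A were 244 and 251 on the depleted arrays and 265 to 279 on the enriched ones. That of enriched sample 2 was taken without its 893 missing values. The gap between B2m and Tap1 was also taken within each array, where the scale of other arrays does not enter. Their difference in log2 values was 2.189 and 2.223 on the depleted arrays and 3.001 to 3.211 on the enriched ones, a change of 0.90 between the group means. This pair was picked after its values were seen and is given without a test.

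Each immunoproteasome subunit was set against the constitutive subunit it replaces, within each array of set A. The difference of Psmb9 and Psmb6 in log2 values was 1.06 and 0.99 on the depleted and 0.36, 0.48 and 0.38 on the enriched arrays. It was thus lower on every enriched array, by 0.61 between the means, at the smallest p that 2 against 3 samples can give (exact permutation test, two-sided, p = 0.1, 0.15 after adjustment over the 3 pairs). For Psmb10 and Psmb7 it was 0.68 and 0.64 against 0.28, 0.01 and 0.20. That pair too was lower on every enriched array, with a difference of means of -0.49 (exact permutation test, p = 0.1, adjusted 0.15). In this pair Psmb7 rose and Psmb10 did not pass. For Psmb8 and Psmb5 the values were 2.07 and 2.28 against 1.63, 1.94 and 1.62, with a difference of means of -0.45 (exact permutation test, p = 0.2, adjusted 0.2). None of the 3 could pass 0.05 at this number of samples.

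**Figure D3:**
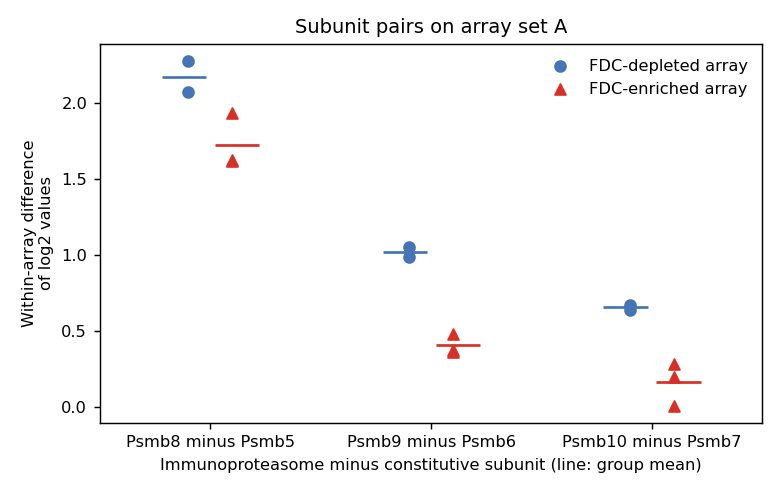
Difference of the log2 values of an immunoproteasome subunit and the constitutive subunit it replaces, within each array of set A, with circles for depleted samples, triangles for enriched samples and a line at each group mean. All 3 pairs were lower on the enriched arrays, by 0.45, 0.61 and 0.49 from left to right.

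The constitutive catalytic subunits went up or did not pass. Psmb7, at a probe set with the family suffix, read 802 and 790 on the depleted and 1099, 1364 and 1110 on the enriched arrays and rose by a log2 fold change of 0.53 (adjusted p = 0.0038, limma). Psmb6 read 625 and 684 against 750, 804 and 733 and did not pass (log2 fold change 0.19, adjusted p = 0.0816, limma). Psmb5 rose at its brightest probe set, on set B, with 705 and 734 against 889 and 824 (log2 fold change 0.23, adjusted p = 0.0239, limma). Both of its set A probe sets had overlapping groups and did not pass, at 0.11 and -0.01, and the set B call was lost under either other scaling (adjusted p = 0.0628 and 0.0623, limma) and without depleted sample 1 (0.143), depleted 2 (0.0735) or enriched 2 (0.105).

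Counted by gene with the brightest tested probe set over all sets, 1 of the 9 members rose, 3 fell and 5 did not pass, with a median log2 fold change of -0.21. The fall of Tap2 on set A is not in this count because its brightest probe set is that of set C. Over all 12273 tested genes 19.2% rose, 14.5% fell and the median was 0.02. Of 10 tested genes for the other subunits of the proteasome core, 3 rose, 1 fell and 6 did not pass, with a median of 0.15. Quantile normalization and median scaling each gave 2 rising and 1 falling genes, with medians of 0.05 and 0.06. Psmb3 rose by a log2 fold change of 0.27 (adjusted p = 0.032, limma). It did not pass under quantile normalization (0.146) or median scaling (0.145). Psma5 and Psmb2 rose with log2 fold changes of 0.37 and 0.39 (adjusted p = 0.00316 and 0.00327, limma), and Psma3 fell by 0.48 on the log2 scale (adjusted p = 0.0117, limma, and 0.1 without depleted sample 2). Of 5 tested activator and assembly genes 2 rose and none fell, but quantile normalization gave 1 rising and 2 falling genes, and median scaling 2 rising and 1 falling. Pomp, the proteasome maturation factor, rose by a log2 fold change of 0.52 (adjusted p = 0.0055, limma, and 0.0687 without depleted sample 1). Psme1, a subunit of the interferon-inducible activator of the proteasome, read 1530 and 1556 against 1196, 1540 and 1282 and did not pass (adjusted p = 0.182, limma), though it passed as a fall under quantile normalization (0.0305), with array weights (0.0111) and without enriched sample 2 (0.0211).

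The loading partner list also held general folding and glycan-processing genes of the endoplasmic reticulum. Its 6 tested genes were Canx, Pdia3, Hspa5, Hsp90b1, Ganab and Uggt1. None of them passed, and the median log2 fold change was 0.12. Quantile normalization and median scaling each gave a median of 0.05, and under median scaling 1 of the 6 fell. Pdia3, the disulfide isomerase of the loading complex, read 375 and 447 against 486, 622 and 489. Its enriched values were all higher, but the log2 fold change of 0.31 had adjusted p = 0.0609 (limma); it passed with array weights (0.0267), with the replicate number as a block (0.0133) and without enriched sample 1 (0.0331). The chaperone gene Canx had a log2 fold change of 0.05 (adjusted p = 0.572, limma), which was below 0 under both other scalings. The calreticulin gene Calr was too dim to be tested, as were Tapbpl and Erap1 of the same list.

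Other class I and class I-like genes went both ways, with 3 of 10 tested genes rising, 2 falling and 5 not passing. Both quantile normalization and median scaling gave 3 rising and 4 falling genes. Procr, the endothelial protein C receptor, has a class I-like fold, does not present peptides, and rose from 133 and 128 to 1055, 1225 and 1268 (log2 fold change 2.53, adjusted p = 2.95e-07, limma). Fcgrt, the heavy chain of the neonatal Fc receptor, rose by a log2 fold change of 0.74 (adjusted p = 0.000147, limma), and the iron regulator gene Hfe with 0.52 (0.000425). Both of these chains pair with B2m, as does that of Cd1d1. Cd1d1, which presents lipids to NKT cells, fell from 418 and 528 to 144, 193 and 138 (log2 fold change -1.18, adjusted p = 9.71e-05, limma).

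Among 21 tested regulators of class I transcription, 2 rose, 6 fell and 13 did not pass. Quantile normalization raised the falling count to 10, and median scaling to 9. Nlrc5, the transactivator of class I, Tap1, B2m and Psmb9 genes, fell on set B from 404 and 405 to 205 and 190, with a log2 fold change of -0.80 ± 0.06 (SE) and adjusted p = 3.24e-06 (limma). Ciita, its counterpart for class II genes, fell by 0.98 on the log2 scale (adjusted p = 1.75e-05, limma). Irf1, an interferon gamma-induced factor that binds Tap1, Psmb9 and B2m promoters, read 1854 and 1519 on the depleted and 2324, 3143 and 3334 on the enriched arrays and rose, with a log2 fold change of 0.76 ± 0.16 (SE) and adjusted p = 0.0051 (limma). The call of Irf1 was lost without depleted sample 2 (0.0528). Socs1, an inhibitor of interferon signalling, rose by a log2 fold change of 0.91 (adjusted p = 3.51e-05, limma). The 3 lowest adjusted p among these genes thus belonged to Nlrc5, Ciita and Socs1.

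Class II and interferon genes are given beside the members for comparison only, and neither list was used to separate causes. Of 10 tested class II presentation genes none rose and 9 fell, with a median log2 fold change of -0.74, and of 16 tested interferon-induced genes outside the class I pathway 12 rose and none fell, with a median of 1.02. H2-Ob had the largest fall of the tested class II genes, by 2.05 on the log2 scale (adjusted p = 1.36e-05, limma). Cxcl10, a chemokine, had the largest rise of the tested interferon-induced genes, with 3.63 (adjusted p = 3.4e-08, limma). The smallest changes that passed in these lists were -0.41 at Cd74 and 0.32 at Oasl2. The set A probe sets of the members ran from -0.57 to 0.33. Ptprc, the pan-leukocyte CD45 gene, read 1536 and 1399 on the depleted and 311, 515 and 386 on the enriched arrays, a log2 fold change of -1.68 (adjusted p = 5.84e-05, limma). The difference between these lists and the members was not tested.

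**Figure D4:**
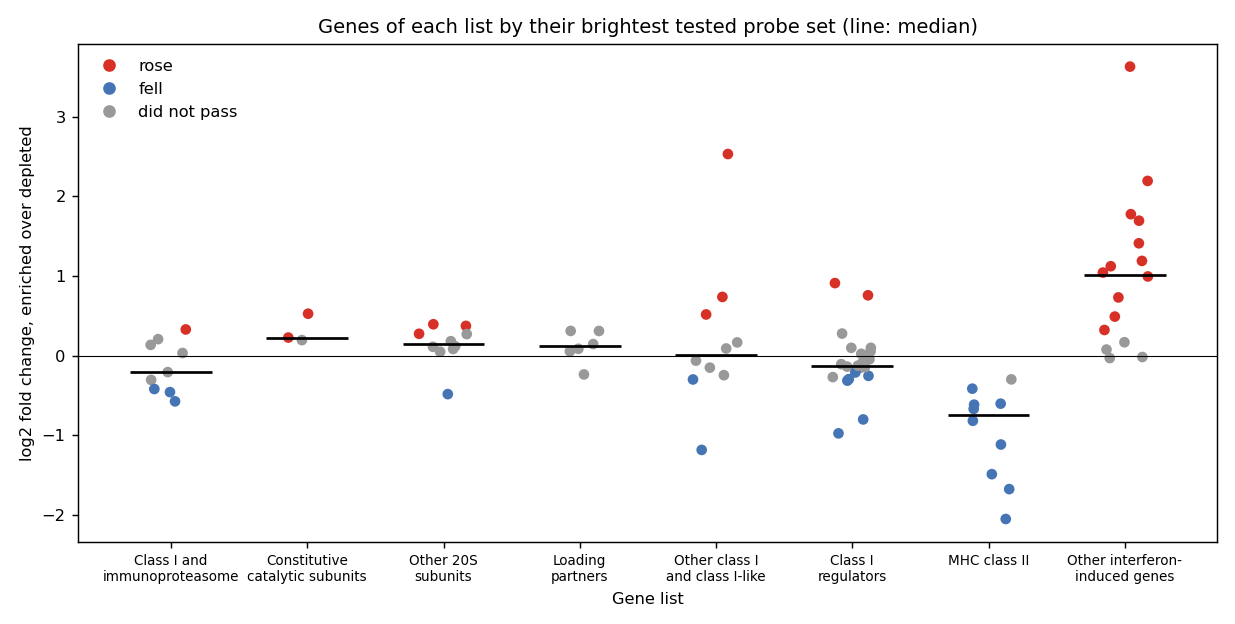
Log2 fold change of enriched over depleted samples for each tested gene of 8 lists, by the brightest tested probe set of the gene, coloured by call, with a line at the median of each list. The class II genes centre at -0.74, the members at -0.21 and the interferon-induced genes at 1.02.

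Over the 5 arrays of set A, the genes whose log2 values followed Tap1 most closely were Mycbp2, Snx2 and Cyb5r4, with Pearson r of 0.99962, 0.99946 and 0.99941. Those closest to B2m were Csf1r, Nrp1 and Cnpy2, with 0.99996, 0.99991 and 0.99986. The points share the 2 groups, and of 6750 probe sets compared 752 had an r over 0.95 with Tap1 and 1209 with B2m, so these names describe the contrast and not a particular likeness.

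**Figure D5:**
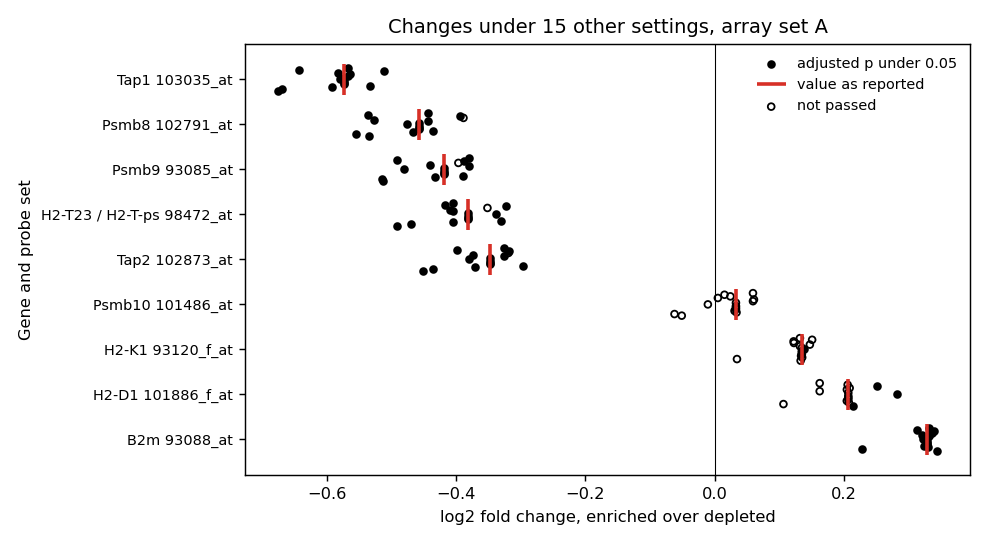
Log2 fold change of 9 set A probe sets under the 15 other settings (points, filled where the adjusted p was under 0.05) and as reported (red lines). B2m and Tap1 passed throughout, while Tap2, Psmb8, Psmb9 and the H2-T23 probe set each failed under 1 setting, without depleted sample 2.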

How the data were processed

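The intensities deposited by the authors are linear and come as 1 table for each of the sets A, B and C, with 12488, 12477 and 11934 probe sets. Their summarisation and scaling steps were not given in the sources used here. For enriched sample 2, set A lacks 893 values, and those probe sets were fitted without it. Array means trimmed by 2% differed within a set by a factor of 1.08 at most, less than the 10% allowed, so the deposited scale was kept.

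Values were analysed per set as log2(intensity + pseudocount), where the pseudocount was the set's 20th percentile of positive values (88.6, 81.3 and 52.9); this scale understates changes of dim genes. Probe sets entered the test if 2 or more arrays had them above their 40th percentile. The two-sided test was that of limma 3.58.1 with a trended prior variance (R 4.3.3), adjusted per set by Benjamini-Hochberg and called at 0.05. Each set's 66 controls were dropped. Symbols came from the array annotation, updated through Entrez identifiers to GRCm38.p6. Of the other probe sets, 10833, 10581 and 7717 had 1 symbol, 396, 178 and 150 several, and 1193, 1652 and 4001 none. In list counts a gene was represented by its brightest tested probe set. Named outside the members were up to 4 passing genes of a list with the lowest adjusted p, and Psmb5, Psmb6, Psmb7, Psme1, Psme2, Irf1, Calr, Canx, Pdia3 and Ptprc where tested. Cr2, Fcer2a, Cd74 and Oasl2 were added to show the spread within their lists. Hspa5, Hsp90b1, Ganab, Uggt1, Tapbpl and Erap1 were added to show what the loading partner list holds. Subunit pairs used an exact permutation test over arrays. Sequence windows of 250 bases were searched and aligned with Python 3.11.15 and Biopython 1.88. The fits were tested on simulated data. Alternatives were other scalings, pseudocounts, filters, variance priors, array weights, adjustment families, a replicate block and each sample left out. The members and lists were chosen with earlier results of these data known. Precision is limited by the number of arrays.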

Additional observations from a re-analysis of the deposited data

How the results depend on the processing

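The number of arrays and the mixed cell makeup of both fractions limit these results, and the tables give no detection call, so signal over background is unknown. With 1 sample of a group left, the lone sample is assumed to vary like the other group. B2m and Tap1 passed under all 15 other settings, and Tap2, Psmb8, Psmb9 and the shared H2-T23 probe set under all but the fit without depleted sample 2. The number of set A member probe sets that rose went from 1 to 2 under quantile normalization, to 6 with array weights, and ranged from 1 to 3 with a sample left out. The number that fell, 4, ranged from 1 to 4 with a sample left out, and the low value came without depleted sample 2. On set C, 1 member fell with adjustment over the 3 array sets together, and 0 to 1 with a sample left out (1 without enriched sample 2). Over all probe sets, 2170 fell on set A with array weights against 1414, and with a sample left out 730 to 1648. Those on set B that fell, 1325, ranged from 793 to 1294. On set C, 698 rose and 639 fell, ranging from 416 to 708 and from 376 to 608 with a sample left out. The low counts came without depleted sample 1 (747 on set A, 849 on set B), without depleted sample 2 (730 on set A, 793 on set B, 434 rising and 376 falling on set C) and without enriched sample 3 (416 rising on set C). The cause was not tested beyond the fewer samples.

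With the replicate number as a block, 407 probe sets rose on set C, and the member calls of set A were the same in number, 1 rising and 4 falling. Whether the numbers mark shared preparations is not stated in the labels, and they were not treated as pairs: deviations of same-numbered samples correlated at 0.0329 and 0.0605 on set A and at -0.312 and -0.149 on set C, and set B shares too few numbers for a block. The log2 differences of the 3 subunit pairs with the block were -0.39 for Psmb8 and Psmb5, -0.60 for Psmb9 and Psmb6 and -0.51 for Psmb10 and Psmb7, and no setting tried turned the sign of any pair.

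Values close to 0 that never passed changed sign. The dim H2-K1 probe set was at -0.094 under quantile normalization, -0.077 with scaling to the median array, -0.018 without depleted sample 1 and -0.0038 without enriched sample 1, within a range of -0.018 to 0.022 with a sample left out. Psmb10 was at -0.051, -0.062 and -0.010 under quantile normalization, scaling to the median array and array weights. The probe set with 10 class I symbols was at 0.057 with array weights, 0.028 without depleted sample 2 and 0.068 without enriched sample 1, and that with H2-Q genes and H2-K1 at -0.025 and -0.0090 under quantile normalization and scaling to the median array. Psmb8 on set C was at -0.0087 with scaling to the median array, -0.043 without depleted sample 1 and -0.0036 without enriched sample 2, within a range of -0.043 to 0.076 with a sample left out. Canx was at -0.046 and -0.033 under quantile normalization and scaling to the median array. The settings applied to genes other than the members were added after seeing the data.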
